A study of Mus musculus with 4 samples.

Results

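The comparison of transverse aortic constriction (TAC) with sham surgery at 2 weeks rested on 2 of the 4 arrays of the series, chosen by their labels. TAC is surgery that narrows the aortic arch, so that the left ventricle ejects against a raised pressure. In a sham operation the chest is opened without the narrowing. Each array held total RNA from the hearts of male C57BL/6J mice, 1 array for sham and 1 for TAC. The study's methods state that a sample was pooled from 4 to 6 mice. By the labels the mice were 10 weeks old at the 2 week time and 16 weeks old at the 8 week time, while the methods place the surgery at 12 weeks of age. The other 2 arrays, sham and TAC at 8 weeks, came from other pools and are given beside the 2 week values. With 1 array in each group there was no replicate check, so no p-value is given, and every difference below is between 2 pools of hearts.

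The heart muscle responds to a pressure load by growing. Adult mouse ventricle uses the fast myosin heavy chain Myh6, and a loaded ventricle is known to take up the slow, fetal form Myh7 together with the skeletal actin Acta1 and the natriuretic peptides Nppa and Nppb, which lower blood pressure. Fibroblasts of a loaded heart are known to turn into matrix-producing cells under TGF-beta signalling. Hypertrophied muscle is also known to shift from fatty acid oxidation towards glucose.

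A probe's level is its background-corrected fluorescence divided by the 75th percentile of its array, so that 1 means as bright as that percentile, and levels of different probes are not comparable. Of 19773 protein-coding genes with a probe, 13596 (68.8%) were well above background on both 2 week arrays. The 75th percentile was 206 intensity units on each 2 week array and 221 and 248 on the 8 week arrays, and no spot was saturated. The 2 week sham array had the lowest share of probes well above background in the series, 54.7%, and the 2 week TAC array the highest, 58.5%. Over all measured genes the median log2 ratio of TAC over sham was -0.01 and the SD 0.33. Probes printed in 10 spots gave a spread within the arrays, with an SD of the log2 ratio of 0.144 over 269 probes, 0.102 over those brighter than 0.25 on at least 1 array and 0.295 over the dimmer 36. This spread leaves out the differences between mice and between pools.

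Over 2-fold higher levels after TAC were seen for 123 genes (0.905% of those measured) and over 2-fold lower levels for 75 (0.552%). At 1.5-fold the counts were 566 higher (4.16%) and 343 lower (2.52%), and a gene is said below to have risen or fallen only where the arrays differed by more than 1.5-fold. The counts of each list below stand beside these shares. A normexp background correction with an offset, which pulls dim values together, left 46 and 21 genes past 2-fold. A further 712 genes were well above background on the TAC array alone and 138 on the sham array alone, and are not in these counts. The TAC array had more probes above background, and its part in these 2 numbers and in the genes detected only in TAC below was not tested. The sham arrays of 2 and 8 weeks, which differ in age, time and pool, were over 2-fold apart for 43 genes (0.32%) that were higher at 8 weeks and 28 (0.208%) that were lower, and over 1.5-fold apart for 1.51% and 1.18%.

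**Figure D1:**
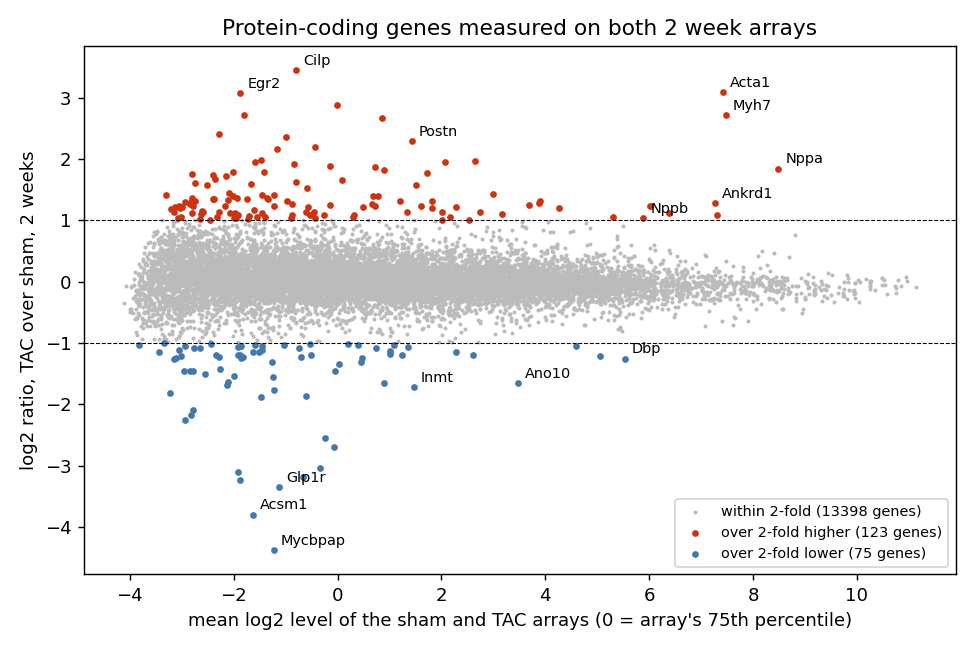
Log2 ratio of TAC over sham at 2 weeks (vertical axis) against the mean log2 level of both arrays (horizontal axis, 0 is the 75th percentile) for 13596 protein-coding genes, 1 point a gene. Red points are the 123 genes over 2-fold higher and blue points the 75 over 2-fold lower, of which 20 and 14 lie below a level of 0.25 on both arrays, while Acta1, Myh7, Nppa and Ankrd1 stand out among bright genes.

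Acta1 and Egr2, an immediate early transcription factor, were 2 of the 3 genes with the largest rises, and the promoters of both hold a CArG box, the site known to bind serum response factor. The 250 bases before their RefSeq start sites are shown (GRCm38.p6, 5′ to 3′ on the gene's strand), with the CArG box in capitals. The Acta1 sequence is chr8:123894776-123895025 on the minus strand, with the box 73 to 64 bases before the start. The Egr2 sequence is chr10:67537316-67537565 on the plus strand, with the box 72 to 63 bases before the start.
Acta1: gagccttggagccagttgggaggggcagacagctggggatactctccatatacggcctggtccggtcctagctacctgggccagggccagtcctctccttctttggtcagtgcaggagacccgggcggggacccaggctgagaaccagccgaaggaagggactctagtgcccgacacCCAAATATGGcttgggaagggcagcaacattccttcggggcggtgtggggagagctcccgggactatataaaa
Egr2: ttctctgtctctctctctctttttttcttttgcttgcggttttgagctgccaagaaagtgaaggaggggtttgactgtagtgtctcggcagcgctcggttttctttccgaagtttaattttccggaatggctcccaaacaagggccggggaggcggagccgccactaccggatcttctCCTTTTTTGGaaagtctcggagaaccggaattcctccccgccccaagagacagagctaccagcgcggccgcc
The motif reads the same on both strands and was searched for in the 250 bases before the start of every protein-coding gene with a RefSeq promoter. It was found in 280 of 17492 promoters (1.6%) and in 171 of 10883 (1.57%) of the genes measured here. Among the genes over 2-fold higher it was in 5 of the 94 with a promoter (5.32%), namely Acta1, Egr2, Robo1, 1810062G17Rik and Gm5800, and among those over 2-fold lower in 0 of 51. A match is a match of letters and not a bound site.

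Both natriuretic peptides and 2 of the 4 measured sarcomere isoforms of the fetal list, Acta1 and Myh7, rose after TAC. The other 2 isoforms hardly differed, with a lowest log2 ratio of -0.01. Acta1, skeletal muscle actin, had a level of 58.4 on the sham array and 498 on the TAC array, 8.53-fold apart. Myh7, the slow myosin heavy chain, went from 69.4 to 455, 6.55-fold. The 8 week pools gave 67.9 and 723 for Acta1 and 69.3 and 895 for Myh7, so the sham values of both ages lay together and both TAC arrays far above them. Nppa, atrial natriuretic peptide, was at 189 in sham and 677 in TAC, and Nppb, the brain type, at 41.3 and 84.5. For Nppb that was 2.05-fold, against 3.84-fold in the pools of 8 weeks.

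The adult counterparts in the same list moved less. All 10 measured adult counterparts had a log2 ratio below 0, with a median of -0.43, and 2 of the 10 fell. Myh6, the fast myosin heavy chain of adult ventricle, was at 1850 in sham and 1620 in TAC, and at 1710 and 1500 at 8 weeks. Its log2 ratio at 2 weeks was -0.19, and -0.36 at its other probe. Atp2a2, the calcium pump of the sarcoplasmic reticulum, was at 441 and 323 (log2 -0.45). Over the whole list of natriuretic and fetal genes 4 of 16 measured members rose and 2 fell, with a median of -0.25 beside -0.01 over all genes. Of 21 measured sarcomere genes Acta1 and Myh7 rose and none fell, with a median of 0.01 whose sign changed with the processing. The slow troponin Tnni1 passed the background test only in TAC, at least 1.7-fold higher there. Its levels were dim, 0.0564 in sham and 0.102 in TAC, and in the other direction at 8 weeks, 0.0789 and 0.0551.

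Genes of the Z-disc and of stretch sensing were mostly higher, 18 of 20 with a log2 ratio above 0. Of these 20 measured members 7 rose and none fell, with a median of 0.30. The ankyrin repeat proteins, which bind titin and enter the nucleus, and the Xin proteins of the intercalated disc held 4 of these rises among 5 members. Ankrd1 was at 99.1 in sham and 241 in TAC, Ankrd23 at 42.5 and 99.5, Xirp2 at 4.81 and 13.0, and the dimmer Ankrd2 at 0.201 and 0.697. All 4 were over 2-fold higher in the pools of 8 weeks too, where Ankrd2 reached 1.5 against 0.185. Enah, an actin-extending protein, was 2.01-fold higher, Fhl1, a LIM protein of the titin spring, 1.57-fold and Nrap, which anchors actin at the disc, 1.51-fold.

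Calcium handling genes moved little and potassium channels were mostly lower. In the calcium list 2 of 18 measured members rose, Casq1, the skeletal calsequestrin, at 0.280 and 0.661, and Rcan1, the calcineurin inhibitor whose transcript calcineurin itself drives, at 3.42 and 6.60. Cacnb2, a subunit of the L-type calcium channel, fell 1.58-fold. Pln, phospholamban, which restrains the calcium pump, was at 76.2 in sham and 57.0 in TAC. Casq1 was 1.28-fold higher at 8 weeks, whereas Rcan1 was 3.30-fold higher.

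In the repolarisation list 4 of 21 measured members fell, none rose, and the median was -0.31. Kcnv2, a silent potassium channel subunit, fell from 1.06 to 0.465 at 2 weeks and stood at 1.01 and 0.304 at 8 weeks. Kcnip2, the partner subunit of the transient outward potassium channel, fell from 2.31 to 1.33, and its channel Kcnd2 from 2.21 to 1.46. Kcnj3, a channel of the muscarinic potassium current, fell 1.69-fold. All 4 were over 1.5-fold lower in the pools of 8 weeks as well, where 3.64% of all genes were, at log2 ratios from -1.73 to -0.83. The sodium, pacemaker and gap junction genes had 4 values above 0 and 4 below.

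The extracellular matrix held the lists with the highest medians. Of 14 measured collagens 13 rose and none fell, with a median log2 ratio of 0.89, and all 14 were above 0 under each scaling tried. Col1a1, the main chain of fibrillar collagen I, was at 11.9 in sham and 23.3 in TAC, Col3a1 at 8.38 and 16.4, and Col5a2, of the minor fibrillar collagen V, at 0.241 and 0.623. The basement membrane chains moved alongside, Col4a1 from 19.8 to 38.2 and Col4a2 from 17.4 to 30.9. Col8a1, a short-chain collagen, showed the largest change in the list, from 0.471 to 1.73, and reached 2.70 against 0.388 at 8 weeks. At 8 weeks 12 of the 14 collagens rose, against 5.33% of all genes, and the median was 0.73. Heart RNA from whole tissue was measured, so more fibroblasts and more RNA per fibroblast cannot be told apart.

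Matricellular and elastic fibre genes showed larger single changes. Of 27 measured members 17 rose, 8 of them past 2-fold, and none fell (median 0.80). Postn, periostin, a marker of activated fibroblasts, was at 1.21 in sham and 5.95 in TAC, and at 1.25 and 9.50 at 8 weeks. Ltbp2, which binds fibrillin microfibrils, went from 0.715 to 4.54, and Mfap4, of the elastic fibre, from 3.16 to 12.3. Fn1, fibronectin, was 2.14-fold higher at 2 weeks and 1.57-fold at 8 weeks. Thbs1, thrombospondin 1, a TGF-beta activator, was at 0.181 and 0.714 at 2 weeks and at 0.398 and 1.61 at 8 weeks, so that the 8 week sham array lay between the 2 week values. Thbs4 rose 2.49-fold and Mfap5 2.50-fold. Sparc, which binds collagen, was bright on all arrays, at 343 and 579 at 2 weeks and 320 and 458 at 8 weeks. Tnc, tenascin C, was not well above background on either 2 week array.

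In the list of crosslinking enzymes, proteases and their inhibitors 16 of 27 measured members rose and none fell (median 0.64). Timp1, an inhibitor of matrix metalloproteinases, was at 0.872 in sham and 3.16 in TAC, and Adamtsl2, a secreted fibrillin-binding protein, at 0.989 and 3.48. Serpina3n, a serine protease inhibitor, was 2.65-fold higher, and Loxl2, a crosslinker of collagen, 2.09-fold, with its 3 probes at log2 ratios from 0.46 to 1.06. Lox itself was dim, at 0.0802 and 0.155. The 2 probes of Adamts8 disagreed, with log2 ratios of -0.01 and 1.59, so that its value depends on the probe. Adamts4, a protease of proteoglycans, passed the background test only in TAC, at least 3.65-fold higher there.

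TGF-beta and CCN genes rose in part, 4 of 9 measured ligands, 3 of 4 CCN proteins and 3 of 12 receptors and regulators. In all 10 of 25 measured members rose and none fell, with a median of 0.22 at 2 weeks and 0.68 at 8 weeks. Among ligands, Gdf15, a stress-induced hormone, was at 0.587 in sham and 1.40 in TAC, and at 0.679 and 10.8 at 8 weeks. Inhbb and Inhba, the activin chains, rose 2.11-fold and 1.80-fold, and Tgfb2 1.55-fold, with a log2 ratio of 0.63 and of 0.37 at its other probe. Fstl3, an inhibitor of activin, was 2.61-fold higher. Of the CCN matrix proteins, Ccn2, formerly Ctgf, went from 11.6 to 20.7 and stood at 49.1 in TAC against 11.1 in sham at 8 weeks. Its fold was thus 1.79 at 2 weeks and 4.43 at 8 weeks, from pools that share no array.

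Growth factor genes split. Of 30 measured members 5 rose and 2 fell (median 0.25). Fgf6, a growth factor known from muscle repair, was at 0.354 in sham and 0.848 in TAC and rose further at 8 weeks, to 2.91 against 0.323. The IGF binding proteins Igfbp7 and Igfbp2 rose 1.88-fold and 1.68-fold and Igf1 1.51-fold. Angpt1, the vessel-stabilising ligand of Tek, fell from 3.15 to 1.61 and stood at 3.43 and 1.73 at 8 weeks. Nrg1, neuregulin, fell 1.84-fold at 2 weeks and was higher in TAC at 8 weeks.

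In the Wnt list the secreted antagonists moved both ways. Of 15 measured members 5 rose and 3 fell. Frzb, which binds Wnt ligands, was at 0.0778 in sham and 0.263 in TAC, and Sfrp2, of the same family, at 0.142 and 0.389. Sfrp5, another antagonist of that family, fell from 0.385 to 0.183, and Wif1 from 0.477 to 0.246. Frzb was 5.04-fold higher and Sfrp5 2.55-fold lower at 8 weeks, in the same directions. Dkk3, at 0.327 and 1.01, had 0.791 on the 8 week sham array, and Fzd2, a receptor, rose 1.82-fold at 2 weeks while its 8 week sham level of 1.33 was above both 2 week levels.

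**Figure D2:**
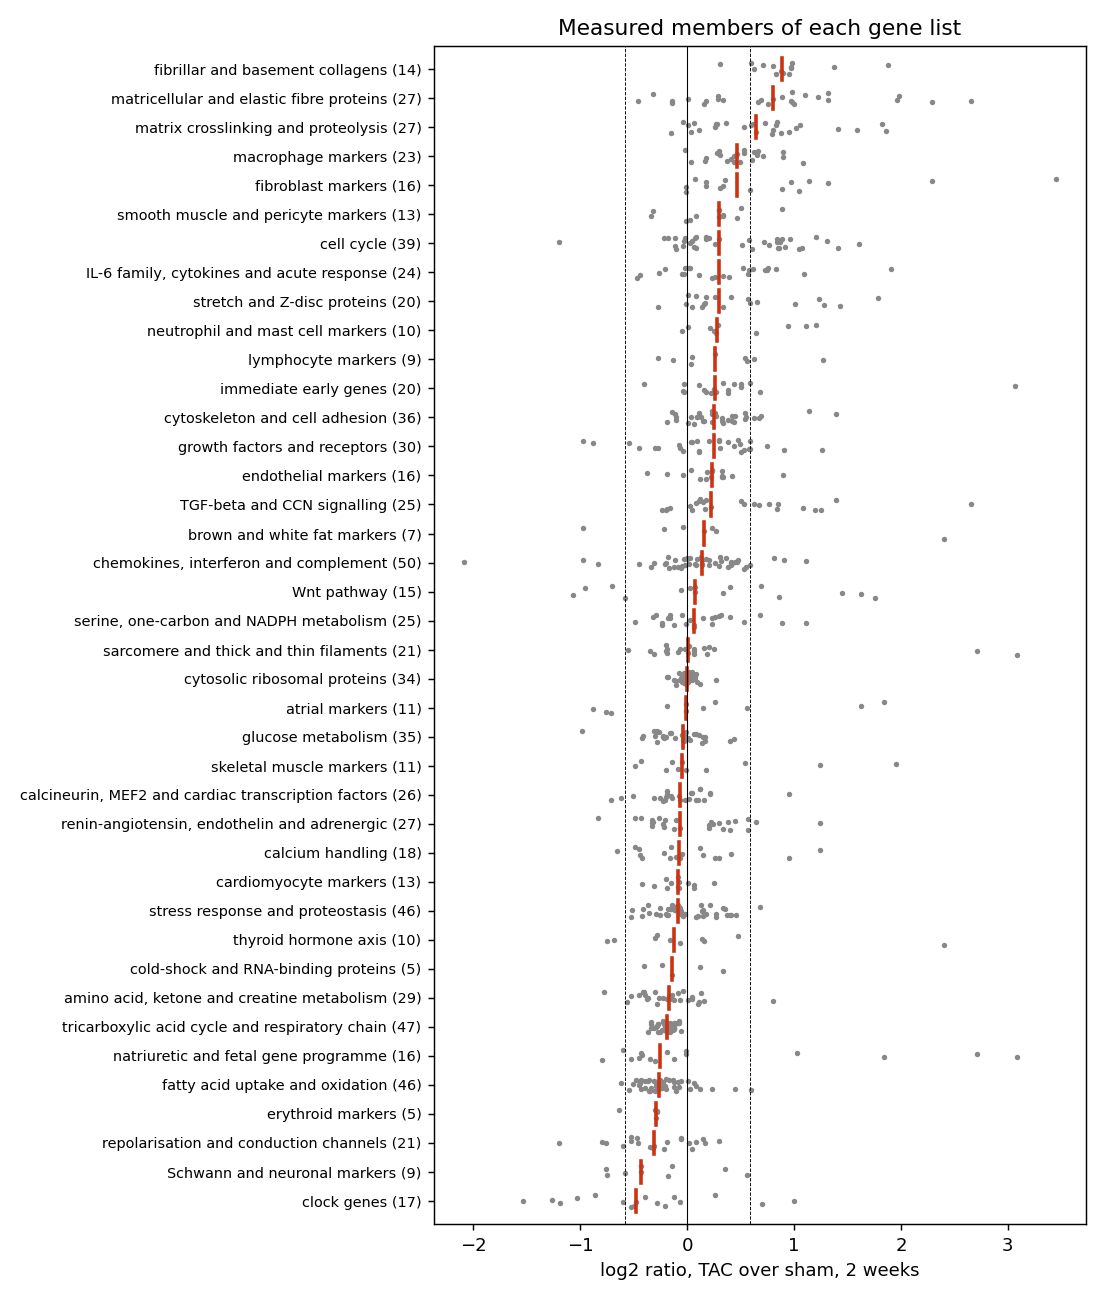
Log2 ratio of TAC over sham at 2 weeks (horizontal axis) for each measured member (grey point) of 40 gene lists, ordered by their median (red bar), with the number of measured members in brackets and dashed lines at 1.5-fold; the vertical scatter within a list carries no value. Matrix lists lie highest, at medians from 0.64 to 0.89, and clock genes lowest at -0.48, while ribosomal protein genes cluster at 0.

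Upstream hormone systems and cardiac transcription factors changed in few members. Of 27 measured renin-angiotensin, endothelin and adrenergic genes 2 rose and 1 fell, near the shares over all genes of 4.16% and 2.52%. The median was -0.07, and its sign changed with the processing. Adcy7, an adenylyl cyclase, rose from 1.08 to 2.56 and was 2.59-fold higher at 8 weeks. Cma1, mast cell chymase, rose at dim levels, from 0.116 to 0.181, and was at 0.106 and 0.107 at 8 weeks. Mas1, the receptor of angiotensin-(1-7), fell 1.77-fold, with its other probe at a log2 ratio of -0.33. Of 26 calcineurin, MEF2 and cardiac transcription factor genes Rcan1 rose and Tbx5 and Klf15 fell, Tbx5 from 4.94 to 3.02 and Klf15 from 4.10 to 2.67. Tbx5 and Klf15, regulators of conduction and of metabolism, were at log2 ratios of -0.93 and -0.51 at 8 weeks.

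Energy metabolism shifted by small amounts in many genes. All 47 measured genes of the tricarboxylic acid cycle and respiratory chain were lower after TAC, and none by 1.5-fold, with a median log2 ratio of -0.19. The 8 week pools gave 47 of 47 below 0 again, with a median of -0.23. Over all genes 51.4% were below 0 at 2 weeks, and of the 761 other genes as bright as the dimmest of these 47, 66.1% were, with a median of -0.05. Quantile normalization put 41 of the 47 below 0 and moved the median to -0.12. Citrate synthase (Cs), the first enzyme of the cycle, was at 392 in sham and 310 in TAC, and Cox7a1, a muscle subunit of cytochrome c oxidase, at 1180 and 937; both were chosen after their values were seen.

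Of 46 measured genes of fatty acid uptake and oxidation 38 were below 0 (82.6%), with a median of -0.26, but only Acot1 fell and Angptl4 rose. Acot1, an acyl-CoA thioesterase, was at 11.1 in sham and 7.22 in TAC and at 8.42 and 2.09 at 8 weeks. Cpt1b, the gate of fatty acid entry into mitochondria, was at 49.0 and 45.0, a log2 ratio of -0.12. Ppargc1a, a coactivator of mitochondrial genes, was at 23.0 and 21.2. Genes of branched-chain amino acid breakdown had 17 of 18 values below 0 (median -0.29), and Ppm1k, the phosphatase that activates the branched-chain dehydrogenase complex, fell 1.72-fold.

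In glucose metabolism 24 of 35 values were below 0, with a median of -0.04. Slc2a1, the fetal glucose transporter, was at 1.76 in sham and 1.53 in TAC, and Hk2, a hexokinase, at 22.8 and 20.3. Pfkfb1, which sets the level of a glycolytic activator, was the only member to fall, from 6.48 to 3.29, and it stood at 6.29 and 1.97 at 8 weeks. Pdk4, the kinase that shuts pyruvate out of the mitochondrion, was at 107 and 114 at 2 weeks but at 33.6 and 36.5 at 8 weeks, further apart between the times than between the surgeries. Bdh1, a ketone body enzyme, rose 1.74-fold and Ckb, brain creatine kinase, was at 4.44 and 4.77. Gapdh was at 1220 and 1230 at its brightest probe, with its 7 probes at log2 ratios from -0.23 to 0.01.

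In serine, one-carbon and redox metabolism 3 of 25 measured members rose and none fell. Mt2, a metallothionein, was at 56.8 in sham and 123 in TAC, and at 19.0 and 66.9 at 8 weeks, so that the sham arrays differed more than the 2 week pair. Mthfd2, the mitochondrial folate enzyme, rose 1.86-fold and Cybb, the phagocyte oxidase, 1.60-fold, both at dim levels, 0.109 and 0.202 and then 0.0935 and 0.149. At 8 weeks Mthfd2 was 2.22-fold higher, whereas Cybb was at 0.104 in sham and 0.0968 in TAC. Nox4, a hydrogen peroxide-producing oxidase, passed the background test only in TAC, at least 4.42-fold higher there. Of 46 stress response and proteostasis genes only Atf3 rose, 1.60-fold, and none fell. None of 34 cytosolic ribosomal protein genes and none of 5 cold-shock and RNA-binding protein genes changed by 1.5-fold.

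Cytoskeleton and adhesion genes had 31 of 36 values above 0 (median 0.25) and 5 rises. Itgbl1, an integrin-like secreted protein, was at 1.06 in sham and 2.78 in TAC, Nmrk2, a nicotinamide riboside kinase of muscle, at 4.53 and 9.96, and the fibronectin receptor chain Itga5 rose 1.59-fold. The integrin chain Itga9 rose 1.61-fold. Nmrk2 had a sham level of 2.40 at 8 weeks, below its 2 week sham level.

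Cell cycle genes rose in part. Of 39 measured members 17 rose and 1 fell, with a median of 0.30, and 16 of the rises were among the 32 genes of S phase, G2 and mitosis. Ccnb1, the mitotic cyclin, was at 0.0853 in sham and 0.260 in TAC, Cenpe, a kinetochore motor, at 0.224 and 0.596, and Prc1, of the spindle midzone, at 0.326 and 0.808. Cdkn1a, the cell cycle inhibitor p21, was higher too, at 3.21 and 7.41. The pools of 8 weeks gave log2 ratios of 1.57, 1.10, 1.35 and 1.15 for these 4 genes. Top2a, a topoisomerase of dividing cells, passed the background test only in TAC, at least 2.26-fold higher there. Cdk1, the exception that fell, had 2 probes at log2 ratios of -1.20 and 1.36, and its mean over probes was 0.08.

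Cytokine and acute response genes rose in part, 7 of 24 measured and none lower by 1.5-fold. Hp, haptoglobin, which binds free hemoglobin, was at 0.290 in sham and 1.09 in TAC at 2 weeks, but at 0.374 and 0.440 at 8 weeks. Ptgds, a prostaglandin D synthase, rose 2.12-fold, and Il11, a profibrotic cytokine of the IL-6 family, 1.77-fold, at dim levels of 0.0794 and 0.141. Il1b was at 0.0829 and 0.141. Among chemokines, interferon-stimulated and complement genes 4 of 50 rose and 3 fell. Cfb and C4b, complement components, rose 2.16-fold and 1.88-fold, and the chemokine Ccl8 1.75-fold. Ccl11, eotaxin, which draws eosinophils, fell from 0.301 to 0.0704 at 2 weeks and stood at 0.382 and 0.0631 at 8 weeks. None of the 19 measured interferon-stimulated genes rose or fell.

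Of 20 measured immediate early genes 3 rose. Egr2 went from 0.0940 to 0.788 and stood at 0.149 and 0.897 at 8 weeks, while Btg2 and Atf3 rose 1.5-fold and 1.60-fold. Egr1 was at 1.81 in sham and 2.56 in TAC, within 1.5-fold. Atf3 was at 2.76 on the 8 week sham array, above both 2 week arrays.

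The circadian clock genes differed between the 2 week arrays more than between the 8 week arrays. Of 17 measured members 6 fell and 2 rose, with a median of -0.48 at 2 weeks and -0.07 at 8 weeks. Dbp, an output factor of the clock, was at 71.4 in sham and 29.8 in TAC, Per3 at 0.398 and 0.175, Hlf at 3.05 and 1.49, and Ciart, a repressor, at 0.429 and 0.148. Arntl, the activator that peaks in the opposite phase, was at 0.444 and 0.887. On the sham and TAC arrays of 8 weeks Dbp was at 44.8 and 37.0, Per3 at 0.231 and 0.193, Arntl at 0.848 and 0.999, and Ciart at 0.174 and 0.279. Hlf was at 2.75 and 1.45 there, over 1.5-fold lower in TAC at both times. The time of day of collection is not given in the sources used here, and its part in these values was not tested.

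The thyroid hormone axis held a large rise of its activating enzyme. Dio2, the deiodinase that makes the active hormone, was at 0.0891 in sham and 0.469 in TAC, and at 0.0887 and 1.11 at 8 weeks. Thrb, a thyroid hormone receptor, and Dio1, a second deiodinase, fell 1.68-fold and 1.61-fold, although another probe of each gave a log2 ratio of -0.43 and -0.35.

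Marker lists described the tissue by counts, medians and summed levels, and a sum is set mostly by its brightest probes. All 13 cardiomyocyte markers were measured, none changed by 1.5-fold, and their summed level was 11900 in sham and 11300 in TAC. Fibroblast markers summed to 259 and 356 at 2 weeks and 282 and 413 at 8 weeks, with 14 of 16 members above 0, 8 of them rising, and a median of 0.47. Beside Cilp and Postn, Meox1, a transcription factor, went from 1.71 to 3.76 and Pi16 from 27.5 to 57.2. Pdgfra, Tcf21 and Dpt, other markers of the list chosen after their values were seen, had log2 ratios of 0.31, 0.07 and -0.01.

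Of 23 measured macrophage markers 22 were above 0 and 8 rose, with a median of 0.47, and Cx3cr1, a chemokine receptor of resident macrophages and monocytes, went from 0.851 to 1.80 and Trem2, a lipid-sensing receptor, from 0.711 to 1.32. Their summed level was 249 and 273. Of 10 measured neutrophil and mast cell markers 9 were above 0 and 4 rose, with a median of 0.28 and sums of 345 and 335. S100a9 and S100a8, neutrophil proteins, rose 2.31-fold and 2.16-fold. Of 18 lymphocyte markers 9 were measured, 7 of them above 0 and 2 rising, with a median of 0.26 and sums of 22.2 and 22.8. Cd2, an adhesion molecule of T cells, was at 0.0894 and 0.215. Of 16 endothelial markers 13 were above 0, with a median of 0.23 and sums of 584 and 698, and only Cldn5, a tight junction protein, rose, 1.87-fold. The 8 week pools gave an endothelial median of 0.02, sums of 530 and 537, and Cldn5 levels of 10.0 and 10.1. Of 13 measured smooth muscle and pericyte markers 10 were above 0, with a median of 0.30 and sums of 192 and 202, and only Cnn1, calponin, rose, 1.85-fold.

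Of the atrial list Nppa and Dkk3 rose and Stard10, Kcnj3 and Tbx5 fell, and the atrial light chain Myl4 was at 3.08 in sham and 3.06 in TAC. Skeletal muscle markers summed to 1240 and 1140, with 7 of 11 below 0, although Mybpc2, the fast myosin-binding protein, rose from 2.14 to 8.28 and was at 2.12 and 6.61 at 8 weeks. Of 16 brown and white fat markers 7 were measured, 4 of them above 0, with a median of 0.16 and sums of 1040 and 966. Dio2 rose and Cfd fell 1.95-fold, while Ucp1, Adipoq and Plin1 were not well above background on either 2 week array. Erythroid markers summed to 1400 and 1150, with all 5 measured members below 0 and a median of -0.29. At 8 weeks they summed to 1310 and 1340, and 0 of the 5 were below 0. Of 9 measured Schwann and neuronal markers 7 were below 0, with a median of -0.43 at 2 weeks and -0.39 at 8 weeks, the second lowest of the 40 lists at 2 weeks. Dbh, which makes noradrenaline, and S100b fell 1.70-fold and 1.68-fold, and the list summed to 19.7 and 18.4. Of the members outside these 9, Chga passed the background test only in sham, at least 4.33-fold higher there, and Chgb only in TAC, at least 1.77-fold higher. Chga was at 0.21 and 0.0436 at 2 weeks and at 0.044 and 0.0142 at 8 weeks, so it stood high on the 2 week sham array alone. The part of these shifts in the other results was not tested.

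The 20 largest rises by the rule for named genes ranged from 3.52-fold to 10.9-fold. Besides those described, Cilp, a secreted matrix protein that restrains TGF-beta, showed the largest, at 0.174 in sham and 1.90 in TAC and at 0.336 and 4.27 at 8 weeks. Tceal7 was at 0.222 and 1.13. At 8 weeks 16 of the 20 were over 2-fold higher. The other 4, Hp, Derl3, Ifnab and Slco5a1, were over 2-fold brighter on the 2 week TAC array than on each of the other 3 arrays. Derl3, of endoplasmic reticulum protein disposal, was at 0.112 and 0.733 at 2 weeks and was too dim for a ratio at 8 weeks, at 0.0427 and 0.0349, and Slco5a1, of a transporter family, was at 0.169 and 0.651 at 2 weeks and 0.118 and 0.136 at 8 weeks.

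**Figure D3:**
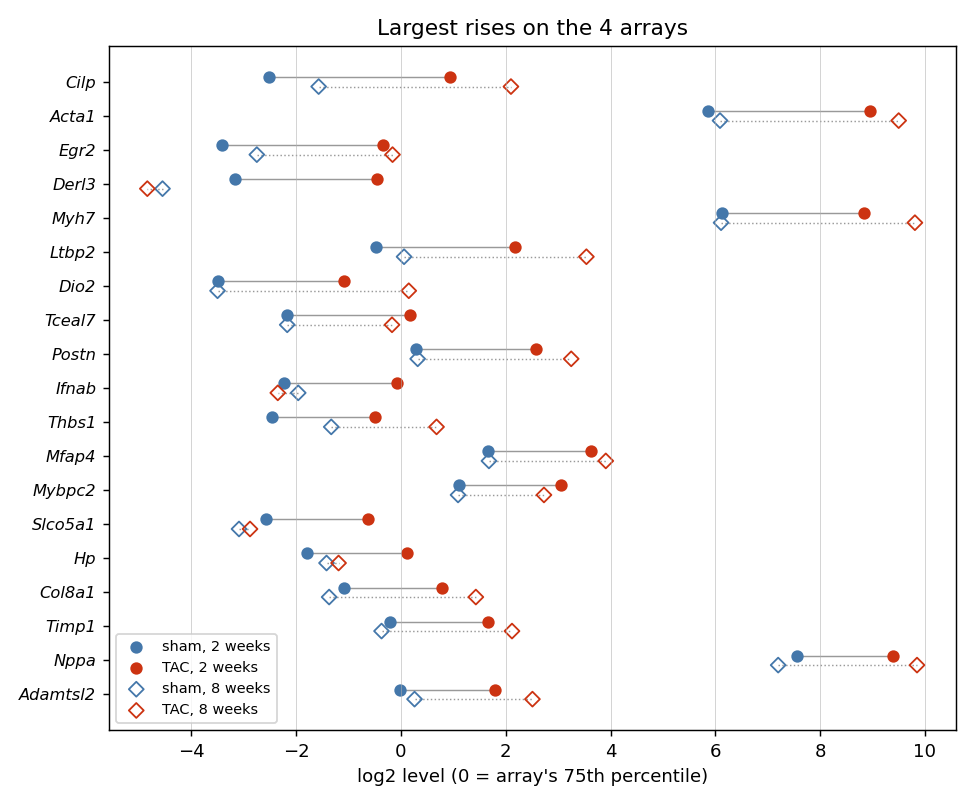
Log2 level (horizontal axis, 0 is the array's 75th percentile) of 19 of the 20 genes with the largest rises on each of the 4 arrays, sham in blue and TAC in red, 2 weeks as filled circles and 8 weeks as open diamonds. For the other 15 genes both TAC arrays lie over 2-fold above their sham array; Derl3, Ifnab, Slco5a1 and Hp stand high on the 2 week TAC array alone.

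The 15 largest falls ranged from 3.13-fold to 20.9-fold. For 6 of them the 2 week sham array was over 4-fold brighter than each of the other 3 arrays. Mycbpap, with the lowest ratio, was at 1.95 on that array and at 0.0932, 0.146 and 0.157 on the TAC array of 2 weeks and the sham and TAC arrays of 8 weeks. Glp1r, the receptor of glucagon-like peptide 1, was at 1.45, 0.142, 0.180 and 0.143 in the same order, and Acsm1, a medium-chain acyl-CoA synthetase, at 1.21, 0.0867, 0.0568 and 0.0749. These falls are the difference of the 2 week sham array from the 3 others, and whether that array or its pool stands apart was not tested.

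At 8 weeks 4 of the 15 were over 2-fold lower too, among them Inmt, Acsm5 and Ccl11. Inmt, a methyltransferase of indolethylamines, was at 5.02 in sham and 1.52 in TAC at 2 weeks and at 5.47 and 1.59 at 8 weeks. Acsm5, another medium-chain acyl-CoA synthetase, was at 0.302 and 0.0668 and then at 0.399 and 0.174. In these 3 genes both sham arrays lay above both TAC arrays.

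**Figure D4:**
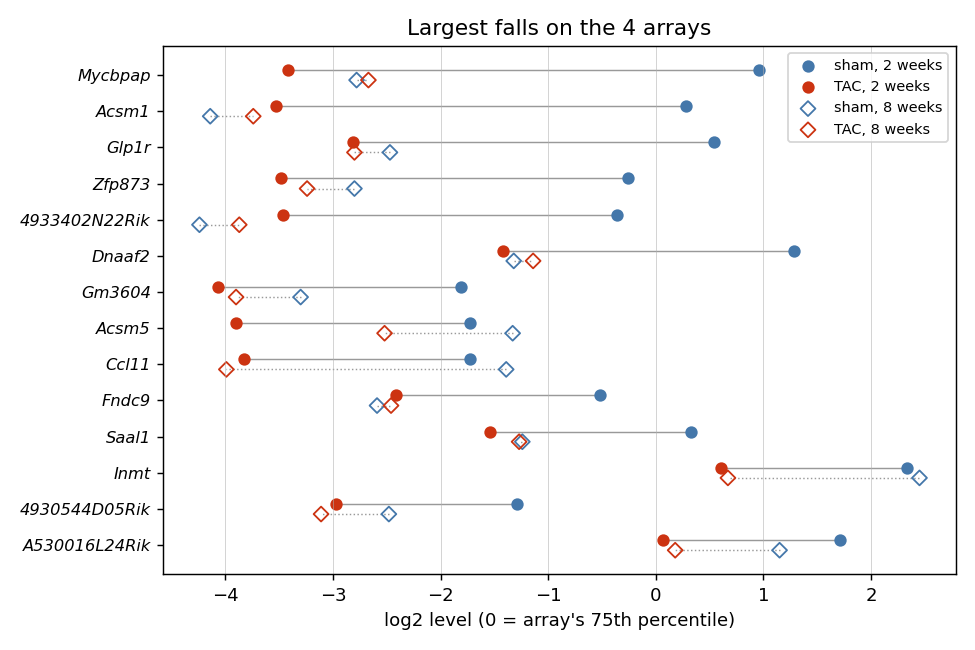
Log2 level (horizontal axis, 0 is the array's 75th percentile) of 14 of the 15 genes with the largest falls on each of the 4 arrays, sham in blue and TAC in red, 2 weeks as filled circles and 8 weeks as open diamonds. Ccl11, Inmt and Acsm5 are over 2-fold lower in TAC at both times, whereas for Mycbpap, Acsm1 and Glp1r the filled blue circle stands alone.

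The pools of 8 weeks share no array with those of 2 weeks. Of the 120 genes over 2-fold higher at 2 weeks and measured on all 4 arrays, 70 (58.3%) were over 2-fold higher at 8 weeks, where 1.79% of all genes were, and 11 had the other direction. Of the 65 over 2-fold lower, 26 (40.0%) were over 2-fold lower at 8 weeks, where 0.826% of all genes were, and 12 had the other direction. Median log2 ratios at 8 weeks were 1.28 for the rises and -0.82 for the falls, against 1.26 and -1.23 at 2 weeks. Of all 123 rises 12 were over 2-fold brighter on the 2 week TAC array than on each other array, and without them 111 remained. Of all 75 falls 8 were over 4-fold brighter on the 2 week sham array alone, and without them 67 remained.

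**Figure D5:**
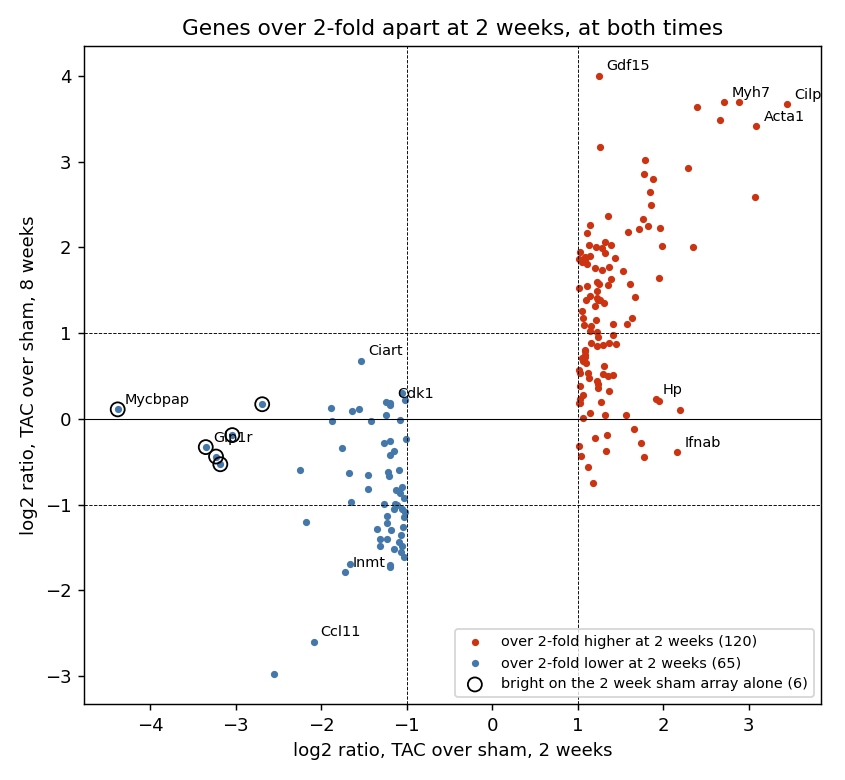
Log2 ratio of TAC over sham at 8 weeks (vertical axis) against 2 weeks (horizontal axis) for the genes over 2-fold apart at 2 weeks and measured on all 4 arrays, 120 higher in red and 65 lower in blue, with dashed lines at 2-fold; rings mark the 6 falls bright on the 2 week sham array alone. The rises lie mostly above the line at 0, and the ringed genes, the lowest at 2 weeks, lie near 0 at 8 weeks.

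Of the 70 genes over 2-fold higher at both times 23 belonged to none of the gene lists, and of the 26 lower at both times 23 did not; those named here were chosen after their values were seen. Aqp8, a water channel, was at 1.78 in sham and 6.08 in TAC at 2 weeks and at 2.01 and 14.5 at 8 weeks. Uck2, a kinase of uridine and cytidine salvage, was at 9.46 and 23.0 and then at 9.25 and 30.8. Emp1, an epithelial membrane protein, rose 2.38-fold at 2 weeks. Gnao1, a G protein alpha subunit, had 2 probes at log2 ratios of 0.34 and 1.23 at 2 weeks, so that its rise depends on the probe. Panx1, a channel that releases ATP, was at 0.571 and 1.21 and then at 0.575 and 2.13. Each of these sham pairs differed far less than the TAC array differed from them.

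Among the genes lower at both times, Penk, the precursor of enkephalins, was at 3.56 in sham and 1.55 in TAC at 2 weeks and at 4.03 and 1.24 at 8 weeks. Lgals4, a galectin, was at 34.7 and 16.8 and then at 29.7 and 10.7. Retnla, a resistin-like protein of alternatively activated macrophages, was at 3.02 and 1.33 and then at 4.02 and 1.64. Phkg1, the catalytic subunit of muscle phosphorylase kinase, was at 1.64 and 0.644 and then at 1.66 and 0.684. Both sham arrays lay above both TAC arrays for these 4 genes. Ano10, of the anoctamin family, was at 19.7 and 6.24 and then at 17.8 and 5.51, but its other probe gave a log2 ratio of 0.06 at 2 weeks, against -1.66, so that its fall depends on the probe.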

How the data were processed

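Labeled cRNA from total RNA was hybridized to single-color Agilent 8x60K mouse arrays. The deposited files hold the scanner's intensity values, which the authors extracted with Agilent Feature Extraction (9.1 in the submitters' processing notes, 10.7.3.1 in the file headers) as background-subtracted processed signals. The deposited value table was read as processed intensities, put on the log2 scale here and used only as an alternative. Processed intensity of non-control spots without outlier flags was put on the log2 scale and each array's 75th percentile (over probes) subtracted, spots of a probe were averaged, and probes well above background on both 2 week arrays were kept. Of 55681 probes, 26582 were matched to genes by RefSeq accession and 1184 by Ensembl transcript. A gene is given by its measured probe with the highest mean signal, and 3401 genes had more than 1, with a median range of log2 ratios of 0.15. A bound ("at least") compares a probe above background on 1 array with the lowest signal above background, or its own if higher, on the other. Probe sequences were not used here, and promoters are from RefSeq (GRCm38.p6). Python 3.11.15, R 4.3.3 and limma 3.58.1 were used, and the scripts were tested on simulated data.

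The text names the 20 largest rises and 15 largest falls (every probe past 1.5-fold, level over 0.25 on at least 1 array), up to 4 members per list in each direction past 1.5-fold, fixed reference genes whatever their values, and other genes, list members among them, chosen after their values were seen; 3 genes are not reported here. The members and lists were chosen with earlier results of these data known. The number of arrays, 1 per condition, limits the precision. The pathway lists and marker lists differ in size and share some genes. Alternatives were other scalings, background corrections, filters, probe rules and fold thresholds.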

Additional observations from a re-analysis of the deposited data

Results flagged for a closer look

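In 3 named genes the 2 week and 8 week pairs were past 1.5-fold in opposite directions, a difference that was not tested since each pair holds 1 array per group. Angptl4, an inhibitor of lipoprotein lipase, had a log2 ratio of TAC over sham of 0.60 at 2 weeks and -0.87 at 8 weeks, with levels of 15.3 and 23.1 and then 8.58 and 4.71. Ciart, a clock repressor, had -1.54 and 0.68, with levels of 0.429 and 0.148 and then 0.174 and 0.279. Nrg1, neuregulin, had -0.88 and 0.72, with levels of 0.860 and 0.468 and then 0.548 and 0.903.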

How the results depend on the processing

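No paired analysis was possible because the labels number no replicates and each group holds 1 array. The counts past 2-fold, 123 higher and 75 lower, stayed within 1.5 times under the other scalings, the probe rules, the outlier spots and the deposited table, between 113 and 138 higher and between 62 and 86 lower, and at 111 and 67 without genes bright on 1 array alone, an alternative chosen after seeing the data. They became 46 and 21 with normexp, whose offset pulls dim values together, 355 and 170 with genes above background on at least 1 array, 566 and 343 at 1.5-fold, and 32 and 21 at 3-fold. Of 440 recomputed list medians 430 moved by less than the spread between spots. That spread, 0.144, is of single probes, so a small median, such as -0.04 for glucose metabolism, could change sign within it. With normexp the median became 0.58 for matricellular and elastic fibre proteins, 0.10 for growth factors, -0.30 for clock genes, 0.32 for macrophage markers, 0.12 for lymphocyte markers and -0.24 for Schwann and neuronal markers. With genes above background on at least 1 array it became 0.54 for the cell cycle, 0.55 for lymphocyte markers and 0.15 for atrial markers, and with the probe of smallest change 0.03 for cold-shock and RNA-binding proteins. Of 1540 recomputed ratios of the 140 genes named by the rule 1436 moved by less than that spread, 102 moved by more, 91 of them with normexp, and 2 changed sign, Cdk1 to 0.08 with the mean of its probes and Adamts8 to -0.01 with the probe of smallest change. Ano10, named outside that rule, changes sign with its other probe, at 0.06. Dim genes carry the widest spread, and no setting can show the spread between mice.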
